A study of Mus musculus with 4 samples.

Results

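The 8 genes Ltf, Pigr, Wfdc2, Wfdc18, Defb1, Pglyrp1, Lcn2 and Slpi were followed in single cells of the mouse vaginal epithelium, out of 25071 gene symbols counted in the series. They were chosen as proteins secreted at mucosal surfaces and the receptor that carries IgA across an epithelium, with earlier results of these data known. Drop-seq was applied to C57BL/6 mice; it captures single cells in droplets and tags each messenger RNA molecule with a unique molecular identifier (UMI). The mice were either surgically ovariectomised (OVX) or wild type with ovaries in place (WT). There were 2 libraries per group, each described as a pool of 5 mice. The age of the mice is not given in the sources used here, and it is unclear whether the 2 libraries of a group came from separate pools, so the spread that p-values rest on may be technical.

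Mucosal epithelia release proteins that bind, starve or cut microbes, and they transport antibodies into the lumen. Ltf encodes lactotransferrin, an iron-binding protein of secretions, and Lcn2 encodes lipocalin 2, which binds the iron carriers of bacteria. Pigr encodes the polymeric immunoglobulin receptor, which takes up dimeric IgA at the base of an epithelial cell and releases it at the surface. Defb1 encodes the antimicrobial peptide beta-defensin 1, and Pglyrp1 encodes a protein that binds bacterial peptidoglycan. Slpi encodes secretory leukocyte protease inhibitor, whose WAP domains inhibit serine proteases. Wfdc2 and Wfdc18 encode other small secreted proteins with WAP domains. The vaginal epithelium is thick and stratified under oestrogen and thin without it, and Ltf is a known oestrogen-induced gene of the mouse uterus.

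In GENCODE vM21 on GRCm38 (mm10), Ltf lies at chr9:111019271-111042767 and Pigr at chr1:130826684-130852249. Wfdc2 lies at chr2:164562413-164568510 and Slpi at chr2:164354070-164389095. Wfdc18 lies at chr11:83709015-83711348, Defb1 at chr8:21776599-21795185, Pglyrp1 at chr7:18871331-18890459 and Lcn2 at chr2:32384633-32388252. Slpi and Lcn2 are on the minus strand and the other 6 on the plus strand. Slpi overlaps the microRNA gene Mir7678. In Pigr, 4.47% of all 50-base words near the transcript's end (its last 500 bases) recur in other genes, and no such word was shared in the other 7.

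The 250 bases upstream of the transcription start in RefSeq (GRCm38.p6) were available for 7 of the 8 genes. They are shown for the 3 genes found mainly in one OVX cluster (Ltf, Pigr and Pglyrp1) and for Wfdc18, the gene that was lower in OVX. Each runs 5′ to 3′ on the gene's own strand and ends at the start site. Capitals in Ltf and Pigr mark GGTCA, one arm of the oestrogen response element, and capitals in Pglyrp1 mark the NF-kB motif GGACTTTCC read on the opposite strand. The windows are chr9:111019042-111019291 for Ltf, chr1:130826434-130826683 for Pigr, chr7:18884440-18884689 for Pglyrp1 and chr11:83708754-83709003 for Wfdc18.
Ltf: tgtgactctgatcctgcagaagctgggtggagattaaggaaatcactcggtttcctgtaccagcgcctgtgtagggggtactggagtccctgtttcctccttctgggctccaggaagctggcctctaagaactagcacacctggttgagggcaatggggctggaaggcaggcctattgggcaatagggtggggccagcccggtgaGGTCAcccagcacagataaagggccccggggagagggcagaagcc
Pigr: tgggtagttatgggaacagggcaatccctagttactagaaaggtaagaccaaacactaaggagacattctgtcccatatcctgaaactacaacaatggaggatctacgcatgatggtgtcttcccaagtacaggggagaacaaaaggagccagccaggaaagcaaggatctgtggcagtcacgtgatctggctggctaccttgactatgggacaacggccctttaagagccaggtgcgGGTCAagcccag
Pglyrp1: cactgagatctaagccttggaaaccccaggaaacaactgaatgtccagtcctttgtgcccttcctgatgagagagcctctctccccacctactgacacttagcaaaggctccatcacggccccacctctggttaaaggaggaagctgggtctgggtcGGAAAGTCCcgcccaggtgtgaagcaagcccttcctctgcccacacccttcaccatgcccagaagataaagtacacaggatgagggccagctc
Wfdc18: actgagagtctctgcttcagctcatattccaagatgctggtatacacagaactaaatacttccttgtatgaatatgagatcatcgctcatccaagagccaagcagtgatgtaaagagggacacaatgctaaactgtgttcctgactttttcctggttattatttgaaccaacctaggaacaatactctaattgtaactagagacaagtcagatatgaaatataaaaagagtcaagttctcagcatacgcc

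The single arm GGTCA, searched on both strands, was in 2 of the 7 windows, starting 45 bases upstream of the start site in Ltf and 12 bases upstream in Pigr. It was in 34.9% of all 27025 promoter windows of the same length. The full oestrogen response element, GGTCA and TGACC with 3 bases between them, was in none of the 7 and in 0.0629% of all windows. The NF-kB motif was in Pglyrp1 alone among the 7, starting 93 bases upstream, and in 0.281% of all windows. The C/EBP motif TTGCGCAA was in none of the 7 and in 0.170% of all windows. These are matches of letters in a window and not measured binding.

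After filtering there were 1564 and 1907 cells in the OVX libraries and 2978 and 1983 cells in the WT libraries. Their median depth was 432 and 738 UMIs per cell in OVX, against 1597 and 798 UMIs in WT. Mitochondrial genes made up a median of 8.96% and 9.69% of a cell's UMIs in OVX and 4.00% and 3.85% in WT. The nuclear RNA Malat1 made up 2.49% and 1.81% of UMIs in OVX and 0.336% and 0.465% in WT. Both measures move with the group, and their part in the results below was not tested. From 2 to 15 barcodes were shared by each pair of libraries, 37 in all, and at most 5 per pair among the cells kept. Clusters built without the 8 genes were named from markers as basal-like, suprabasal-like or luminal-like. Basal-like cells numbered 791 and 1094 in OVX and 969 and 761 in WT, and suprabasal-like cells 43 and 17 in OVX and 998 and 732 in WT. Luminal-like cells numbered 421 and 587 in OVX and 2 and 1 in WT.

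Levels are given as CPM, the UMIs of a gene per 1000000 UMIs of the library or class. Over whole libraries, 7 of the 8 genes had a higher CPM in both OVX libraries than in either WT library, and Wfdc18 had a lower one. Groups did not overlap in 50% of all 11486 genes tested. Of the 8 genes, 6 had counts high enough to test. With edgeR's quasi-likelihood test and Benjamini-Hochberg adjustment over all genes, all 6 passed, where 5.05% of all tested genes did: 5 were higher in OVX, against 2.55% of all tested genes, and 1 was lower, against 2.5%. Lcn2 and Slpi were too low to enter the fit. Ltf, Pigr and Pglyrp1 had few molecules in WT and could enter it only through their OVX counts. The 8 genes were also chosen with earlier results of these data known. Their count beside the share of all genes is therefore a description. In sums over a whole library, fewer cells of a type and less RNA per cell cannot be told apart.

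Among the iron-binding proteins, Ltf had 64.4 and 96.5 CPM in the OVX libraries, against 1.89 and 1.56 in the WT libraries. These are 51 and 158 molecules in OVX and 11 and 3 in WT, and the gap between the groups exceeds the spread between the OVX libraries. The log2 fold change was 5.35 ± 0.53 (SE, edgeR adjusted p = 0.00356). Lcn2 had 2.53 and 8.55 CPM in OVX, against 1.37 and 1.04 in WT. These rest on 2 and 14 UMIs in OVX and 8 and 2 UMIs in WT, and the interval of OVX library 1 (0.306 to 9.12) covers both WT values. The pooled OVX level of Lcn2 was 5.11 times the WT level (95% exact interval 2.18 to 12.6, counting error only). In the edgeR fit without a filter on low counts its log2 fold change was 1.95 (adjusted p = 0.173).

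Pigr, the IgA receptor, had 25.3 and 36.7 CPM in OVX, against 0.515 and 0.520 in WT. The OVX values stand for 20 and 60 molecules, the WT values for 3 and 1. The log2 fold change was 5.67 ± 0.64 (edgeR adjusted p = 0.00465). Transcripts of IgA were not seen in this preparation of epithelium. Igha and Igkc, which encode IgA heavy and kappa light chains, are not among the gene symbols of any library. An absent transcript and an uncounted gene cannot be told apart there. The same holds for the B-cell and plasma-cell genes Cd79a, Ms4a1 and Mzb1. Jchain, which links the IgA dimer, had 1 UMI, in OVX library 1. Ighm and Cd79b of the same marker list were detected, and the 8 genes of the list summed to 4 and 5 UMIs in OVX and 3 and 2 in WT.

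Among the peptides that act on bacteria, Defb1 had 54.3 and 87.4 CPM in OVX, against 11.5 and 14.03 in WT, with a log2 fold change of 2.37 ± 0.45 (edgeR adjusted p = 0.0268). Both OVX libraries lay above both WT libraries. Without OVX library 2 the log2 fold change was 1.88 and no longer passed (adjusted p = 0.235). Pglyrp1 had 24.0 and 11.6 CPM in OVX, against 0.686 and 1.56 in WT, and a log2 fold change of 3.94 ± 0.71 (edgeR adjusted p = 0.0228). The OVX libraries hold 19 molecules each and the WT libraries 4 and 3. Without OVX library 1 its log2 fold change was 3.42 (adjusted p = 0.140).

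The WAP-domain genes went in both directions. Wfdc2 had 503 and 572 CPM in OVX, against 60.2 and 60.3 in WT, with a log2 fold change of 3.02 ± 0.42 (edgeR adjusted p = 0.00937). Its libraries agreed closely within each group. Wfdc18 had 15.2 and 7.33 CPM in OVX, against 48.9 and 77.4 in WT. It fell by 2.69 ± 0.51 on the log2 scale (edgeR adjusted p = 0.0269), and without OVX library 2 it fell by 2.26 and did not pass (adjusted p = 0.271). Slpi had 3.79 and 3.05 CPM in OVX, on 3 and 5 molecules, against 0.343 in WT library 1, on 2 molecules, and 0 in WT library 2. The pooled OVX level of Slpi was 12.8 times the WT level (95% exact interval 2.55 to 123). Without the filter on low counts its edgeR log2 fold change was 3.23 (adjusted p = 0.155).

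**Figure D1:**
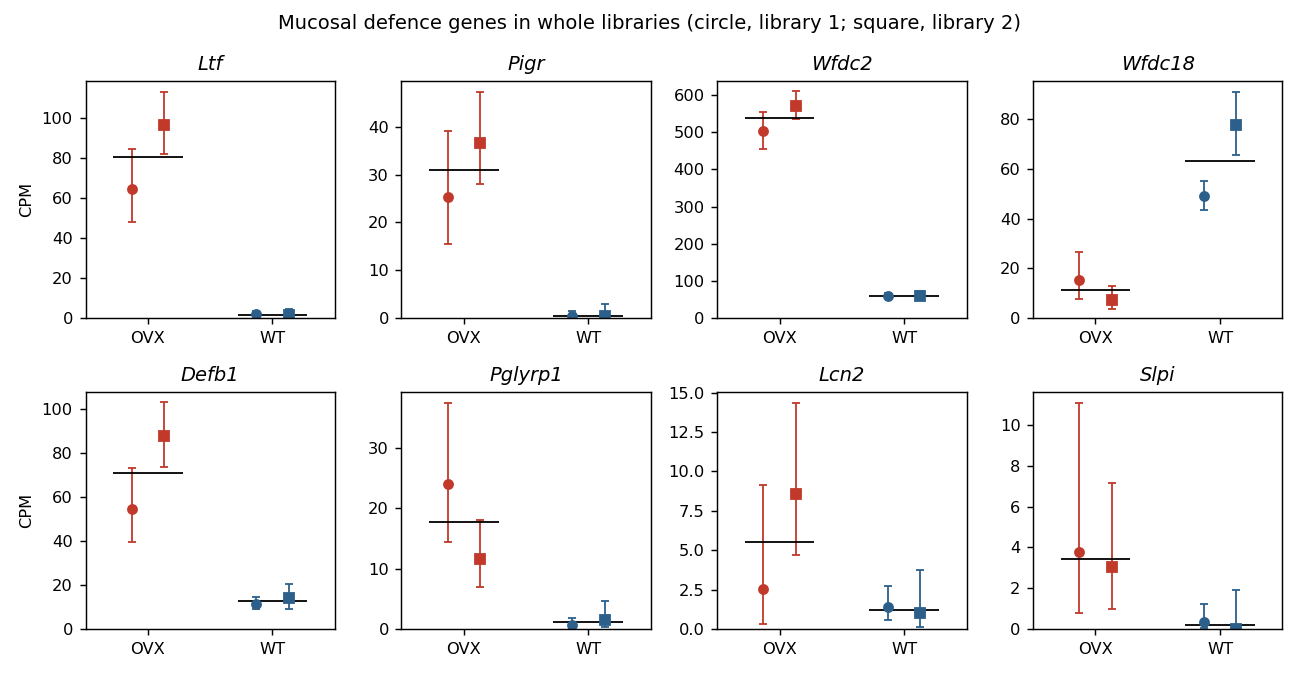
Level in each library (vertical axes, CPM, linear from 0, a scale of its own per gene) for the 8 genes, with OVX libraries left and WT libraries right. Points are libraries, vertical bars are 95% exact Poisson intervals for counting error, and horizontal lines are means of 2 libraries; Wfdc18 alone is lower in both OVX libraries.

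The molecules came from different epithelial classes. Ltf, Pigr and Pglyrp1 were found mainly in the luminal-like cells of OVX mice, Defb1 mainly in basal-like cells in OVX and more in suprabasal-like than in basal-like cells in WT, Wfdc18 in one suprabasal-like cluster of WT mice, and Wfdc2 in several classes. Classes come from clustering, so a level in one class beside another is a description.

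In OVX library 1 all 51 of 51 Ltf molecules lay in luminal-like cells, and in OVX library 2, 151 of 158 did. The figures for Pigr were 20 of 20 and 56 of 60, and for Pglyrp1 19 of 19 in each library. Ltf thus reached 196 and 265 CPM in OVX luminal-like cells, Pigr 77.0 and 98.3, and Pglyrp1 73.2 and 33.4. OVX basal-like cells had 0 and 7.79 CPM of Ltf, 0 and 4.45 of Pigr, and none of Pglyrp1 in either library. The luminal-like cells were named from Cldn3, Epcam, Krt8, Krt18, Krt19 and Tspan8, markers of simple epithelium, which were higher there than in other OVX cells. These are 6 of the 13 genes of the luminal list, and 2 basal and 2 suprabasal markers also met the rule. Krt5 or Krt14 was counted in 82.3% of the cluster's cells. The suprabasal list summed to 863 and 901 CPM there, against 125 and 141 in OVX basal-like cells, and the luminal list to 3193 and 2878, against 928 and 905. Krt13, a keratin of the suprabasal marker list, was also among their 10 leading genes. WT libraries held 2 and 1 such cells, so Ltf, Pigr and Pglyrp1 could not be compared between groups within this class.

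A UMI of Ltf was present in 19 of 421 luminal-like cells (4.51%) of OVX library 1 and 45 of 587 (7.67%) of OVX library 2. Thinned to 400 UMIs per cell, which removes the difference in depth, the shares were 3.52% of 312 cells and 4.92% of 579 cells. Thinned shares for Pigr were 2.15% and 2.88%, for Pglyrp1 2.67% and 1.17%, and for Wfdc2 22.1% and 21.5%. OVX basal-like cells, at a median of 424 and 718 UMIs against 553 and 816 in luminal-like cells, had a UMI of Ltf in 0 of 791 cells, which allows up to 0.379% of cells with a UMI, and in 6 of 1094 cells (0.548%). These are limits on cells with a UMI and not on cells that express Ltf at a low level.

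**Figure D2:**
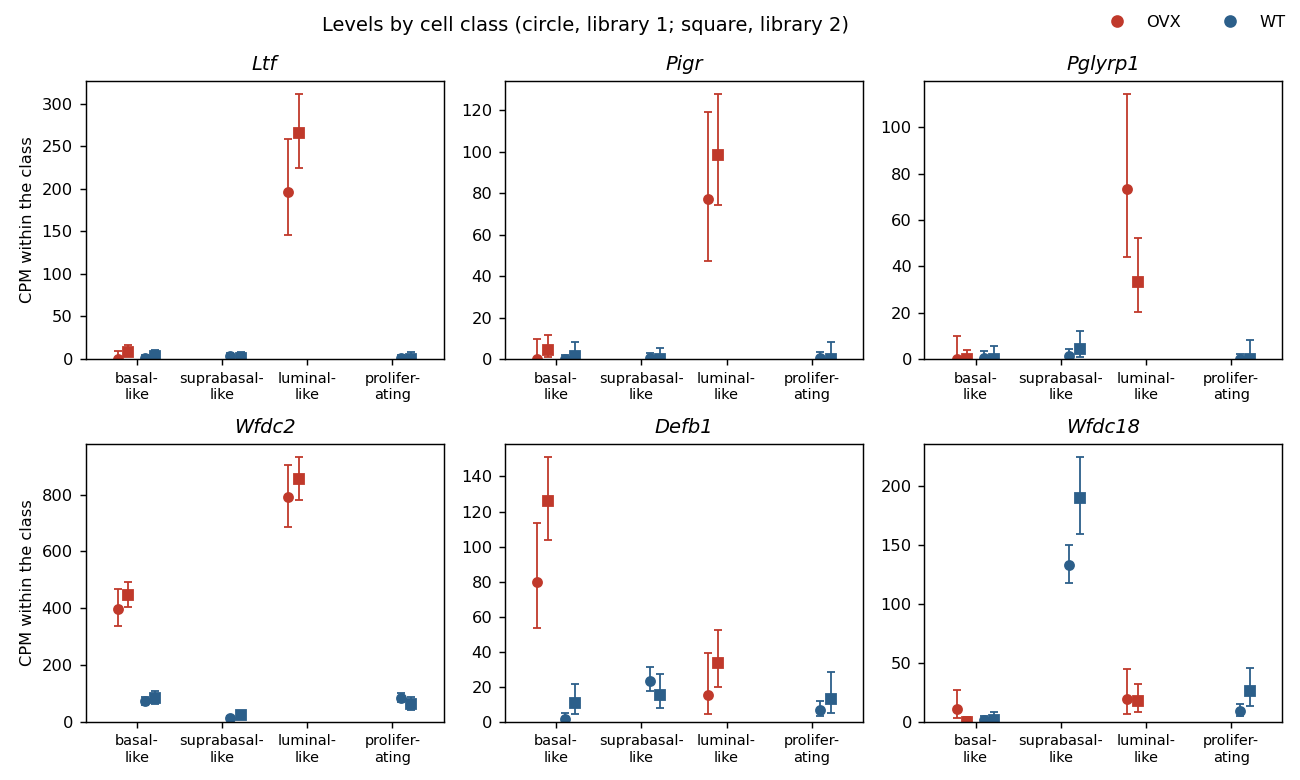
Level within the class (vertical axes, CPM, linear from 0) for 6 genes in 4 cell classes, OVX left and WT right within each class. Points are libraries with at least 50 cells of the class and bars are 95% exact Poisson intervals; OVX suprabasal-like and proliferating cells and WT luminal-like cells are too few to draw. Ltf, Pigr and Pglyrp1 are high in OVX luminal-like cells, Defb1 in OVX basal-like cells and Wfdc18 in WT suprabasal-like cells.

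The Ltf molecules sat in few cells. Of the 19 Ltf-positive luminal-like cells in OVX library 1, 9 had a single Ltf UMI and the highest had 12, and the 5 highest cells held 60.8% of the molecules. Of the 45 in OVX library 2, 23 had a single UMI and the highest had 21, and the 5 highest cells held 43.0%. Pigr reached at most 3 and 5 UMIs in a cell. Ltf-positive cells had a median of 645 and 984 UMIs, against 546 and 806 UMIs in Ltf-negative cells of the same class.

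The same cells tended to hold several of the genes. Pigr was present in 9 of 19 (47.4%) and 17 of 45 (37.8%) Ltf-positive luminal-like cells, against 1.49% and 2.77% of Ltf-negative ones. Wfdc2 was present in 18 of 19 and 38 of 45 Ltf-positive cells, against 25.4% and 32.8% of Ltf-negative cells. Pglyrp1 was present in 8 of 19 and 4 of 45, against 2.24% and 2.40%. Defb1 was in none of the Ltf-positive cells and in 0.746% and 3.14% of the Ltf-negative cells. At such low shares, its absence from 19 and 45 cells cannot be read as a difference. Positive cells were deeper, so the pairs were also taken at 400 UMIs, where Ltf and Pigr together were present in 1.04% and 1.15% of cells, against 0.0757% and 0.142% for the product of their single shares. Cells share a library and may include doublets, and these shares carry no test. Cells with 4 or more of the 8 genes numbered 6 and 5 in the OVX libraries, all luminal-like, and 0 in either WT library.

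**Figure D3:**
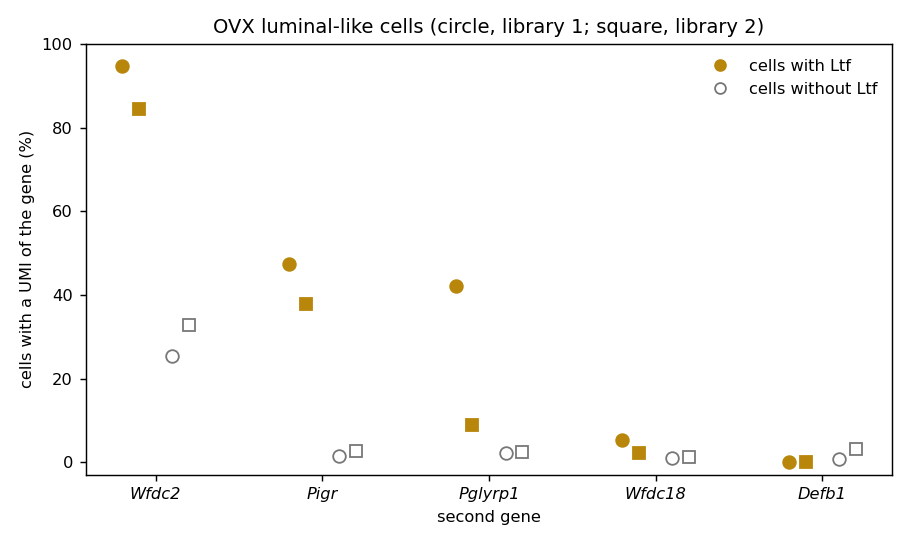
Share of OVX luminal-like cells (percent, vertical axis) with a UMI of a second gene (horizontal axis), in cells with Ltf (filled, left) and without Ltf (open, right). Circles are OVX library 1 and squares OVX library 2; Pigr is at 47.4% and 37.8% with Ltf and at 1.49% and 2.77% without.

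Basal-like cells were present in number in all 4 libraries, and within them Defb1 and Wfdc2 were higher in OVX. These 2 of the 8 genes had counts high enough to test, and both passed. Defb1 had few molecules in WT basal-like cells and could enter the fit only through its OVX counts. Among all 8793 genes tested 3.5% passed, 1.54% being higher and 1.97% lower in OVX basal-like cells. Groups did not overlap in 50.5% of all genes tested. The OVX basal-like cells came almost wholly from 1 cluster (788 and 1094 cells). The WT ones came mostly from 2 others (891 and 26 cells in one, 63 and 713 in the other), which split mainly by library. The cluster of 63 and 713 cells was named on 3 of 13 basal markers (Itgb4, Lama3 and Lamb3). The basal list summed to 9810 and 10663 CPM in OVX basal-like cells, against 55504 and 29605 in WT ones. In OVX luminal-like cells it summed to 7406 and 7945 CPM. How far the class matches between the groups was not tested.

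Defb1 had 79.6 and 126 CPM in OVX basal-like cells, against 1.76 and 10.5 in WT basal-like cells. Basal-like cells held 30 of 43 and 113 of 143 of the Defb1 molecules in OVX, while 3 and 7 molecules were counted in WT basal-like cells. The log2 fold change was 4.32 ± 0.74 (edgeR adjusted p = 0.0193). It was 3.25 without WT library 1 and 5.70 without WT library 2, and passed in both fits. Thinning to 400 UMIs left 450 and 1069 basal-like cells in OVX and 969 and 744 in WT. It left out 341 shallower cells of OVX library 1 and 25 of OVX library 2, against 0 and 17 in WT. Among the cells left, Defb1 was in 3.18% and 4.92% in OVX, against 0.0600% and 0.597% in WT. Unthinned shares over all basal-like cells were 3.67% and 8.87% in OVX and 0.310% and 0.920% in WT. In WT mice Defb1 was at 23.5 and 15.3 CPM in suprabasal-like cells, which held 47 of 67 and 11 of 27 of its WT molecules. In OVX luminal-like cells it was at 15.4 and 33.4, below the OVX basal-like cells of the same library in both.

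Wfdc2 had 398 and 447 CPM in OVX basal-like cells, against 71.6 and 82.6 in WT basal-like cells. The log2 fold change was 2.41 ± 0.42 (edgeR adjusted p = 0.0208). The direction was the same without either OVX library, but the call was lost without OVX library 1 (adjusted p = 0.0926) and without OVX library 2 (adjusted p = 0.215). At 400 UMIs, 13.1% and 16.7% of OVX basal-like cells had a UMI of Wfdc2, against 3.03% and 3.38% in WT. Unthinned shares were 15.8% and 29.3% in OVX and 11.5% and 6.70% in WT. As a gauge of free RNA, the small cluster led by MHC class II genes had a UMI of Wfdc2 in 1 of 15 and 0 of 26 OVX cells, at median depths of 424 and 582 UMIs, and in 1 of 13 and 0 of 8 WT cells. Its Wfdc2 level in OVX had upper limits of 674 CPM in library 1, above the basal-like level there, and 187 CPM in library 2, below it. Barcodes that failed the filters held Wfdc2 at 477 CPM in the pooled OVX libraries, above both basal-like values, with values per library given below. The part of free RNA in the basal-like level was not tested. Within OVX, Wfdc2 was higher in luminal-like cells (790 and 853 CPM) than in basal-like cells of the same library in both libraries. Within WT, it was at 84.6 and 61.2 in proliferating cells, which overlap the basal-like values, and lower in suprabasal-like cells at 14.5 and 23.7. An unnamed cluster was led by Heg1 and Hlf and had the S-phase genes Mcm2 and Dtl among its 10 leading genes. These markers were taken from its WT cells alone. It held 148 and 109 cells in OVX and 324 and 91 in WT. Wfdc2 there was at 294 and 329 CPM in OVX, against 133 and 191 in WT. The groups did not overlap there, the gap was smaller than in basal-like cells, and no test was run. The WT values of that cluster were above those of WT basal-like cells in both libraries.

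The other 6 genes were sparse in basal-like cells. Lcn2 had 5.31 and 10.0 CPM in OVX, on 2 and 9 molecules, against 0.587 in WT library 1, on 1 molecule, and 0 in WT library 2. The pooled ratio was 20.4 (95% exact interval 2.97 to 880). Basal-like cells held 2 of 2 and 9 of 14 OVX molecules of Lcn2, and 47.6% and 54.9% of all OVX UMIs. For Ltf the pooled ratio was 3.25 (0.827 to 15.1), an interval that includes equal levels. Pigr, Wfdc18, Pglyrp1 and Slpi had 0 to 4 molecules per library there. At 400 UMIs, the share of basal-like cells with a UMI was higher in both OVX libraries than in both WT libraries for Wfdc2, Defb1 and Lcn2, and overlapped for the other 5. With 2 libraries per group, the two-sided exact permutation test cannot give a p below 0.333. It gave that value for those 3 genes and 1 for the others (exact test, 8 genes), before adjustment.

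Wfdc18 was a gene of one suprabasal-like cluster of WT mice. Suprabasal-like cells held 266 of 285 and 136 of 149 of its WT molecules, at 133 and 190 CPM of the class. Within the class, the cluster led by Sprr1a, Krt13, Krt4 and Spink12 had 288 and 385 CPM in WT, and 26.8% and 18.0% of its cells held a Wfdc18 UMI. The cluster led by Krt6b and Krt16 had 2.21 and 6.68, and the one led by Krt1 and Calm4 had 29.98 and 49.7. In the highest cells 10 Wfdc18 UMIs were counted in each WT library. The few OVX suprabasal-like cells, 43 and 17, held 1 Wfdc18 molecule per library, which gives 51.6 and 73.9 CPM. Their intervals (1.31 to 287.3 and 1.87 to 412) include both WT values of the class. Of these cells, 43 and 15 lay in the cluster led by Sprr1a, where WT had 287.9 and 385 CPM. The OVX library 1 interval ends just below both of those values, and the OVX library 2 interval includes both. The lower Wfdc18 of whole OVX libraries stands beside far fewer cells of the class, and a change within the class was not tested. OVX luminal-like cells had 19.3 and 17.6 CPM of Wfdc18.

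**Figure D4:**
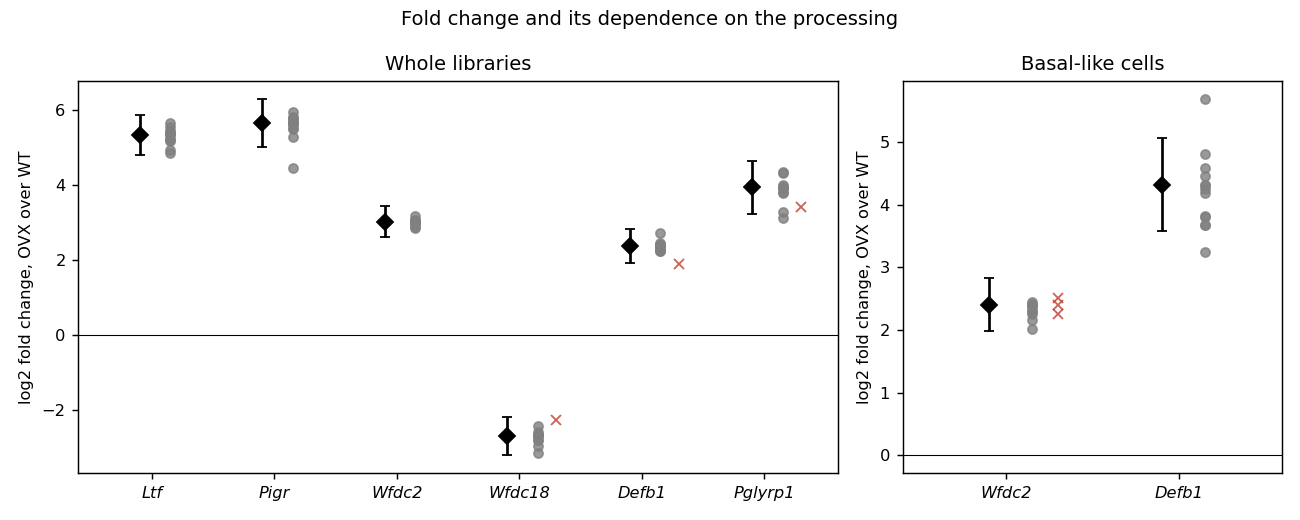
log2 fold change of OVX over WT (vertical axes) for the members tested in whole libraries (left) and in basal-like cells (right). Black diamonds with bars are the edgeR estimate ± SE; grey circles are the same gene under other processing settings with adjusted p under 0.05, and red crosses are settings where it was not. No setting changes a direction, and the crosses for Wfdc18, Defb1 and Pglyrp1 are fits that leave out 1 OVX library; those for Wfdc2 in basal-like cells are 2 such fits and the fit with a replicate block.

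Across 10 sums of library and class, the log2 levels of Gm2694 (Pearson r = 0.986) and Cgnl1 (0.983) ran close to that of Ltf. Both also ran close to Pigr, at 0.987 and 0.984, and Ltf and Pigr correlated at 0.999 with each other. For Pglyrp1 the closest genes were Prr15l (0.983), the keratin Krt19 (0.981) and Gm2694 (0.974). For Wfdc18 they were the homeobox gene Barx2 (0.9495) and the cornified-envelope genes Sprr1a (0.929) and Sprr2d (0.923). For Defb1 they were Abi3bp (0.954), 4632427E13Rik (0.926) and Zdhhc21 (0.922), and for Wfdc2 the immunoproteasome subunit Psmb8 (0.970), Nfat5 (0.964) and Ormdl3 (0.963). Defb1 also ran close to Lcn2 (0.922). For Lcn2 they were Rnf146 (0.908), Nrep (0.884) and AC156568.1 (0.882), and for Slpi Sumf1 (0.959), 9130008F23Rik (0.929) and Pir (0.923), on 26 and 10 UMIs of those members in all. Ltf, Pigr and Pglyrp1 were high only in the OVX luminal-like sums, so those sums largely set their correlations. Several sums share a library and its depth, and the values are descriptions over 9041 candidate genes.

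Of a list of 75 other mucosal defence genes, 49 had a UMI and 16 could be tested over whole libraries. Of these, 7 were higher in OVX, against 2.55% of all tested genes, and 0 were lower. Their median log2 fold change was 1.14, beside -0.03 over all genes tested. A gene counted in one group alone can enter such a fit only by being high there. The list was also chosen with earlier results of these data known, so its counts are a description. Cxcl17, a mucosal chemokine, had 91 and 147 UMIs in OVX and none in WT (edgeR adjusted p = 0.00356), and 89 and 145 of those lay in luminal-like cells. Agr2, a protein disulfide isomerase of mucus-secreting cells and also on the luminal marker list, had 16 and 20 UMIs in OVX, all luminal-like, and none in WT (edgeR adjusted p = 0.0100). Cd14, a co-receptor for bacterial lipopolysaccharide, had 60.6 and 35.4 CPM in OVX, against 4.63 and 5.196 in WT (edgeR adjusted p = 0.0131), and Wfdc15b, another WAP-domain gene, 17.7 and 23.2 in OVX, against 2.06 and 0 in WT (edgeR adjusted p = 0.0411). Complement C3 had 10.1 and 8.55 CPM in OVX, against 0.343 and 1.04 in WT (edgeR adjusted p = 0.0325). With epithelial clusters only, C3 was too low to enter the fit.

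The lysozyme genes Lyz1 and Lyz2 passed the threshold as well (edgeR adjusted p = 0.0180 and 0.00683), but all of their molecules lay in a small cluster led by MHC class II genes, 15 and 26 cells in OVX and 13 and 8 in WT. Macrophage markers summed to 116 and 120 CPM in OVX and 22.6 and 18.2 in WT, with 8 of 9 detected in each OVX library and 9 and 7 in WT. That cluster held no molecule of the 8 genes other than 1 of Wfdc2 in OVX library 1 and 1 in WT library 1. Of 13 neutrophil markers, Csf3r, Mmp8, Mmp9, Ngp, Elane, Ctsg and Prtn3 are not among the gene symbols of any library, so they could not be assessed. The other markers of the list were at 0 in luminal-like cells. Ltf, Pglyrp1 and Lcn2 are also known from neutrophil granules. Lcn2 had 0 and 2 UMIs in OVX luminal-like cells. A neutrophil source was not tested. The whole list summed to 0 and 1.83 CPM in OVX and 10.1 and 12.0 in WT. In basal-like cells 5 of the 75 genes could be tested and none passed with edgeR, limma or DESeq2.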

How the data were processed

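Drop-seq matrices of vaginal epithelium were analysed for 2 OVX and 2 WT libraries. What the authors deposited are raw UMI counts by gene and barcode, without normalization. Pronase released the epithelium, which was squeezed out by hand, per the labels' protocols. Per the submitters' processing notes, mm10 was the build and Seurat 2 a tool; for the aligner and the choice of barcodes, nothing is given in the sources used here.

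Barcodes under 200 genes or over 20% mitochondrial UMIs were dropped, leaving 8446 cells. A doublet caller marked 14 (0.166%), too few to have worked; these were removed, and doublets remain. Counts were scaled to 10000 per cell and clustered without the 8 genes (2000 variable genes, 30 principal components, 15 neighbours, Leiden resolution 0.8; scanpy 1.11.5, leidenalg 0.10.2). Clusters were named when at least 3 listed markers were higher (log2 fold 0.25, detected in 5% of cells) within the group that holds most of the cluster. A cluster stayed unnamed if another list had more genes among its 10 leading genes. The same held for a much shallower cluster with no listed marker among them. These rules were set after clusters were seen. The cluster with Mcm2 and Dtl among its leading genes, one led by ribosomal pseudogenes and the one led by MHC class II genes stayed unnamed.

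Library sums were tested with edgeR 4.0.16 in R 4.3.3 (TMM, filterByExpr, no covariates, threshold 0.05). Levels are UMIs per 1000000 UMIs of kept cells (CPM). Intervals are 95% exact Poisson intervals and cover counting error only; the floor for a count of 0 is 3 counts. Depth was 791799 and 1636888 UMIs in OVX and 5828502 and 1924476 in WT. Likeness is the Pearson correlation of log2(CPM + 10) over sums of at least 50 cells, for genes with at least 100 UMIs. The text names the 8 members, up to 3 genes most like each (1 is not reported here), and each listed defence gene past the threshold. Alternatives used DESeq2 1.42.0, limma 3.58.1, other size factors, no filter, other cell sets and libraries left out. The fits were tested on simulated data. Members and lists were chosen with earlier results of these data known. Protein sequences were not used here.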

Additional observations from a re-analysis of the deposited data

Results flagged for a closer look

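Barcodes that failed the filters, and so entered no comparison, held Wfdc2 at 477 CPM in the pooled OVX libraries (118 of 247392 UMIs, 95% exact interval 395 to 571), against 37.4 in the pooled WT libraries (1 of 26763 UMIs, interval 0.946 to 208). The OVX level in these barcodes is a signal outside the main measurement. By library it was 411 CPM in OVX library 1 and 749 CPM in OVX library 2, against 503 and 572 CPM in the OVX cells kept, and 0 and 98.4 CPM in the WT barcodes left out. OVX library 1 gave 1436 of these barcodes and OVX library 2 gave 93, against 22 and 17 in WT. Ltf had 13 such UMIs in each OVX library, which gives 65.2 and 270 CPM, and 0 in WT, where the pooled WT interval reaches 138 CPM, above OVX library 1 and below OVX library 2.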

How the results depend on the processing

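Of the 6 members tested over whole libraries, none changed direction in 12 alternatives, and calls were lost only without 1 OVX library (Defb1, Wfdc18 and Pglyrp1, above). The number of genes called was 580; it was 1352 without the filter on low counts and 312 to 1863 when a library was left out, where a lone library is assumed to vary like the other group. In basal-like cells it was 308, 814 without the filter and 120 to 1395 when a library was left out. Members past the threshold there numbered 2, and 1 to 2 when a library was left out. Defence genes past the threshold numbered 7, none lower in OVX. They numbered 13 without the filter (10 higher, 3 lower), 4 in epithelial clusters only and 4 to 9 when a library was left out (7 higher and 2 lower without WT library 1); C3 was lost without OVX library 1 (adjusted p = 0.238) or WT library 1 (0.0781) and was too low to test without OVX library 2 or in epithelial clusters only, and Wfdc15b without OVX library 2 (0.0633). With the replicate number as a block, counts were 517 and 287, and 1 member passed in basal-like cells, since Wfdc2 did not (edgeR adjusted p = 0.0599). Same-numbered libraries deviated in opposite ways (r = -0.568 and -0.510). Library depth also ran in opposite order in the 2 groups, so these correlations cannot show whether the numbers pair the samples. A crossed pairing, chosen after seeing the data, gave 3486 and 2185 calls. The difference in the share of basal-like cells, OVX minus WT, changed sign for Wfdc18 without thinning (-0.0309 percentage points) and at Leiden resolution 1.2 (-0.0112), and for Pglyrp1 at resolution 1.2 (0.0136). The causes were not tested. Depth limits statements on Lcn2, Slpi and the 60 OVX suprabasal-like cells.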
